A study of Mus musculus with 24 samples.

Results

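Acute phase proteins are plasma proteins whose production by the liver rises or falls with inflammation, and 10 of their genes in the mouse were followed here through a study of an antisense oligonucleotide. The 10 genes are the serum amyloid A genes Saa1, Saa2, Saa3 and Saa4, the orosomucoid genes Orm1 and Orm2, the haptoglobin gene Hp, the hemopexin gene Hpx, the serum amyloid P gene Apcs and the hepcidin gene Hamp. The genes were taken by name, to ask for an inflammatory reaction to the oligonucleotide. Saa3, Saa4, Saa1 and Saa2 form a cluster on chr7, from 46711998 to 46754313 in RefSeq's GRCm38.p6 annotation, where Hamp and Hpx lie too. Orm1 and Orm2 are neighbors on chr4, from 63344556 to 63365877, Hp lies on chr8 and Apcs on chr1. All 10 had a probe on the array, with 14 probes in all, of 19057 named genes and 45281 probes. Total RNA of liver and of epididymal white adipose tissue (EWAT) was measured on Illumina bead arrays, which read each transcript by a probe bound to beads. The animals were male C57BL/6J mice on a normal chow diet. All of them had received an intraperitoneal injection of antisense oligonucleotides, the gapmers, 48 hours earlier. Gapmers pair with an RNA and direct its cleavage by the cell's RNase H. In each tissue 4 samples came from mice given the gapmer against the transcription factor gene Sox6, here S1 to S4, and 4 from mice given a control gapmer, here C1 to C4. The labels give no age, dose or gapmer sequence, do not say whether a number marks the same animal in both tissues, and do not say whether an animal stands alone behind each sample. Every group carried an oligonucleotide, so a reaction shared by both gapmers lies outside these comparisons.

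In the acute phase response, interleukin-6, interleukin-1 and tumor necrosis factor released by immune cells act on hepatocytes. Interleukin-6 signals through the transcription factor STAT3, and interleukin-1 and tumor necrosis factor signal through NF-kB, with C/EBP factors acting beside them at many acute phase promoters. In the mouse, Saa1 and Saa2 are the serum amyloid A genes that hepatocytes induce most, Saa3 is induced in macrophages and fat as well, and Saa4 is expressed constitutively. Orosomucoids are plasma glycoproteins that bind drugs and lipids. Haptoglobin binds free hemoglobin and hemopexin binds free heme. Apcs encodes the pentraxin that serves the mouse as its main acute phase pentraxin, and hepcidin is the liver hormone that lowers iron release through ferroportin.

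Promoters of 8 of the 10 genes were in the RefSeq table of assembly GRCm38.p6; Orm1 and Hp were not matched. The 250 bases before the start site are shown for Saa1 and Saa2, whose levels moved together across livers, for their neighbor Saa3, whose relation to Saa1 did not pass, and for Hamp, which holds a STAT motif. Saa1 was read on the minus strand of chr7:46742981-46743230, Saa2 on the plus strand of chr7:46751583-46751832, Saa3 on the minus strand of chr7:46715677-46715926 and Hamp on the minus strand of chr7:30944030-30944279. The table's start sites of Saa1 and Saa3 lie inside their RefSeq genes. Capitals mark matches on either strand to a C/EBP motif (TTNNGNAA) or a STAT motif (TTCNNNGAA).
Saa1: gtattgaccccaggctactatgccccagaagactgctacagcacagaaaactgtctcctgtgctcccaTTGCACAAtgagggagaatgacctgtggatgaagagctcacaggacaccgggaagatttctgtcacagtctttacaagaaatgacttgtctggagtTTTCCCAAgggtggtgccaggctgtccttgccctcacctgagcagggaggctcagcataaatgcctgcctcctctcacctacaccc
Saa2: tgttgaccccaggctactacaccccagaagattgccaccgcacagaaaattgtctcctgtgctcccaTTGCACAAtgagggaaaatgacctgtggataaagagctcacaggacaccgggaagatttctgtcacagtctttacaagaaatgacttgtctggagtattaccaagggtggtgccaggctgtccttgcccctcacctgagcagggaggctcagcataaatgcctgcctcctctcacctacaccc
Saa3: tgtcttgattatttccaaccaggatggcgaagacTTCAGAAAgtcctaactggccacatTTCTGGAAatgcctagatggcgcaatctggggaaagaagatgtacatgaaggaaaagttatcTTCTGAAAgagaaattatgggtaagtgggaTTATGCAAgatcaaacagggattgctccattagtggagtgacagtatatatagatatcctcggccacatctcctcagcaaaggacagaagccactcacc
Hamp: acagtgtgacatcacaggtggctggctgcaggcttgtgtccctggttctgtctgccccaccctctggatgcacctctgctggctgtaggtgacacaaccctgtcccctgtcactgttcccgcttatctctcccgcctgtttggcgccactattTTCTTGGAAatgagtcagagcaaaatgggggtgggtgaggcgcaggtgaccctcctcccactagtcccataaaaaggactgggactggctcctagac
The Saa1 and Saa2 stretches were 94.8% identical, at 238 of 251 aligned columns, against 48.5% for Saa1 and Saa3. They share the C/EBP match TTGCACAA, which starts 182 bases before the start site in Saa1 and 183 bases before it in Saa2. A second C/EBP match lies in Saa1, and Saa3 holds 4 such matches. In Hamp the STAT match TTCTTGGAA spans the bases 97 to 89 before the start site. A C/EBP match occurred in 6 of the 8 promoters, against 36.8% of 32851 mouse promoters of that length. A STAT match occurred in 2, Apcs and Hamp, against 7.02%. The NF-kB motif searched (GGGNNT followed directly by NNCC) occurred in 0 of the 8, against 15.9%. No matches overlapped each other. Such matches describe letters and are not evidence of binding.

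Levels below are log2 values of one probe after normalization within a tissue, with the offset added in normalization still in them, so a difference understates the change of dim probes. The livers took 14 arrays and the EWAT samples 10, repeat arrays of a sample were averaged, and n is 4 samples a group. The share of probes detected ran from 32.9% to 36.4% over the liver arrays and from 41.5% to 45.9% over the EWAT arrays. All 12 hepatocyte markers were detected on all 14 liver arrays, and all 12 adipocyte markers with a probe on all 10 EWAT arrays. Sox6, the target, averaged 4.98 and 4.83 in control and SOX6 livers, close to background (limma adjusted p = 0.738, log2 difference -0.15). In EWAT Sox6 averaged 5.91 and 5.34, a log2 difference of -0.57 with a limma adjusted p of 0.841. Genes of epididymal epithelium had a summed log2 level of 14.73 in EWAT sample S2 and 14.36 in S4, against 8.67 in S3 and 7.19 to 7.37 in the other 5. Spink8 (14.2 and 13.82) and Defb42 (13 and 12.68) carried the sums of S2 and S4. Adam7 read 4.8 and 4.84 there and Lcn8 4.87 and 5.39, and both were highest in S3, at 7.41 and 6.86. Lcn5 and Rnase10 had 0 of 10 EWAT arrays with detection. Genes of ciliated ducts reached 11.94 in EWAT sample C3 and 11.95 in S3, against 7.29 to 8.23 in the other 6. The members' differences in EWAT are therefore given with and without these samples.

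Most of the 10 genes were liver genes in these samples. With all 24 arrays normalized together, 9 of the 10 differed between control liver and control EWAT (limma, adjusted p under 0.05), as did 66% of the 11413 genes tested. Of the 9, 8 were higher in liver, where 26.2% of all genes were, and Hp was lower in liver, where 39.8% of all genes were. Saa2, Saa4, Hpx, Apcs and Hamp had 0 of 10 EWAT arrays with detection. Saa1 was detected on 1 EWAT array, that of C2, with 1 of its probes at 5.36, and on 0 with its other probe. Of 12 hepatocyte markers in EWAT, 4 were not detected and others were: Alb, Cps1, Tat and Cyp3a11 had 0 arrays with detection, whereas Ass1, Fah and Cyp2e1 had all 10.

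For genes below detection in EWAT the fold is a lower bound, the control liver mean against the higher of each EWAT array's detection limit and the probe's own value. The limma p-values of these genes come from the EWAT values as read, below detection, and do not belong to the bounds. Hpx was at least 870-fold higher in liver (limma adjusted p = 4.19e-22) and Hamp at least 486-fold higher (limma adjusted p = 6.74e-18). Saa4 was at least 83.7-fold higher, Saa1 at least 45.9-fold, Apcs at least 36.6-fold and Saa2 at least 2.42-fold (limma adjusted p = 9.59e-19, 9.92e-08, 2.04e-15 and 0.0117). The orosomucoids were present in fat too. Orm1 averaged 13.23 ± 0.22 in control liver and 10.73 ± 0.99 in control EWAT (SD, n = 4 each), 5.65-fold higher in liver (limma adjusted p = 2.2e-05). Orm2 averaged 9.96 ± 0.37 and 6.83 ± 0.82 (SD, n = 4 each), 8.76-fold higher in liver (limma adjusted p = 2.48e-06). Haptoglobin, which adipocytes are known to secrete, averaged 13.68 ± 0.13 in control liver and 14.17 ± 0.23 in control EWAT (SD, n = 4 each), a log2 difference of -0.48 (limma adjusted p = 0.0153). Saa3 averaged 6.97 ± 0.46 and 6.42 ± 0.56 (SD, n = 4 each), with a log2 difference of 0.55 (95% interval -0.12 to 1.23, limma adjusted p = 0.135). For these last genes the scaling matters: the median of all genes was -0.155 here and -0.539 with arrays centred on their median. With that centring Hp read -0.26 (limma adjusted p = 0.24) and Saa3 read -0.14 (limma adjusted p = 0.731), on the other side of 0. Hp also read -0.41 without EWAT sample C4 (limma adjusted p = 0.0516), and Saa3 read 0.75 without C3 and S3 (limma adjusted p = 0.0359).

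**Figure D1:**
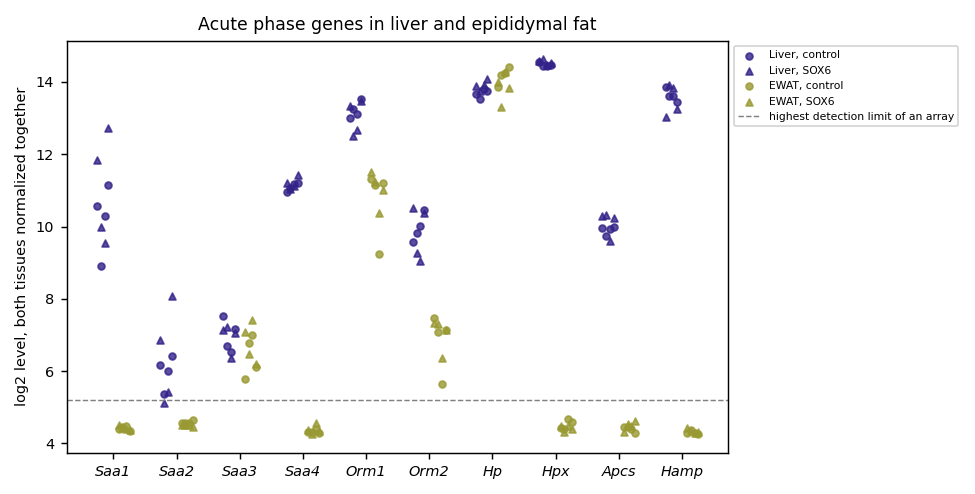
Log2 level of each acute phase gene per sample with both tissues normalized together. Purple symbols are livers, olive symbols EWAT samples, circles control and triangles SOX6 gapmer, and the dashed line is the highest detection limit of any array, 5.2. Saa1, Saa2, Saa4, Hpx, Apcs and Hamp lie below the line in every EWAT sample, and Saa3, Orm1, Orm2 and Hp lie above it in every sample of both tissues.

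In liver no acute phase gene passed between SOX6 and control gapmer. All 10 genes were tested and 0 were called, against 0.241% of 8731 genes (limma, adjusted p under 0.05). The members' adjusted p ran from 0.404 to 0.974. At an unadjusted p under 0.05 limma gave 1 of the 10, Hp, against 9.92% of all genes. Groups overlapped in all 10, where they did not in 5.89% of all genes. No member was called higher, as 0.0229% of all genes were, or lower, as 0.218% were. The log2 difference was above 0 for 6 members and below 0 for 4, with a median of 0.0959, against 0.0041 over all genes.

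Serum amyloid A 1 varied more between livers than nearly any other gene. The control livers C1 to C4 read 10.46, 8.64, 10.15 and 11.12 and the SOX6 livers S1 to S4 read 11.87, 9.84, 9.31 and 12.79. S4 and S1 were the 2 highest livers and control liver C2 the lowest, and the other SOX6 livers lay among the controls. The lowest and the highest liver lay 17.8-fold apart, and the standard deviation within groups ranked 11 of 8731 genes. Repeat arrays of a liver differed by 0 to 0.34 in 6 pairs, far less than livers did. The groups averaged 10.09 ± 1.05 and 10.95 ± 1.65 (SD, n = 4 each), a log2 difference of 0.86 (95% interval -0.75 to 2.47, limma adjusted p = 0.738). That interval runs from 0.595-fold to 5.54-fold, so that no change and a rise of several-fold both lie within it. Without S4 the difference was 0.25 and without C2 it was 0.37. Within the 4 chips the Saa1 difference was -1.62, 3.26, -0.22 and 2.45, 2 in each direction. Each chip held a single SOX6 liver, in that order S3, S4, S2 and S1, so these values are not independent of the livers above. The second Saa1 probe gave the controls as 6.05, 4.96, 5.57 and 6.69 and the SOX6 livers as 7.04, 5.38, 5.17 and 8.18, with S4 and S1 again highest and a difference of 0.63.

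Saa2, the close paralog beside Saa1, was dimmer and was detected on 12 of the 14 liver arrays. Control livers read 5.73, 5.05, 5.55 and 5.96 and SOX6 livers 6.41, 4.84, 5.06 and 7.72. S4 and S1 stood highest here as well, and S2 and S3 lay at the level of the lowest control. The difference was 0.44 (95% interval -0.72 to 1.60, limma adjusted p = 0.828), and without S4 it turned to -0.13. Its spread within groups ranked 23 of the 8731 genes. Whether the Saa1 and Saa2 probes each read a single paralog was not tested, since probe sequences were not used here.

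Saa3, the serum amyloid A of macrophages and fat, put the livers in another order. Control livers read 7.15, 6.25, 6.07 and 6.74 and SOX6 livers 6.72, 6.79, 5.90 and 6.64. C1 was the highest liver and S3 the lowest, and the groups overlapped over most of their range. The difference was -0.04 (95% interval -0.60 to 0.52, limma adjusted p = 0.974). C1 was also the liver with the highest summed level of macrophage markers, 11.1 against 9.8 to 10.76 in the other 7, and of Kupffer cell markers, 9.95 against 8.31 to 9.06. This was not particular to those cells. C1 was highest too for endothelial markers, 9.85 against 9.01 to 9.46, and for the lymphocyte, neutrophil, red cell and adipocyte sums. It was not highest for the hepatocyte and mesothelial sums. The part of any of these cell types in the Saa3 level was not tested. In bulk tissue, fewer cells of a type and less RNA per cell cannot be told apart. Without C1 the Saa3 difference read 0.16.

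Saa4, the constitutive serum amyloid A, varied less than Saa1, Saa2 and Saa3, and its spread within groups ranked 5262 of 8731 genes. Control livers read 10.89, 11.01, 11.13 and 11.16 and SOX6 livers 11.17, 10.98, 11.08 and 11.41. All 8 lay within a 1.43-fold range, with a difference of 0.11 (95% interval -0.11 to 0.33, limma adjusted p = 0.75).

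**Figure D2:**
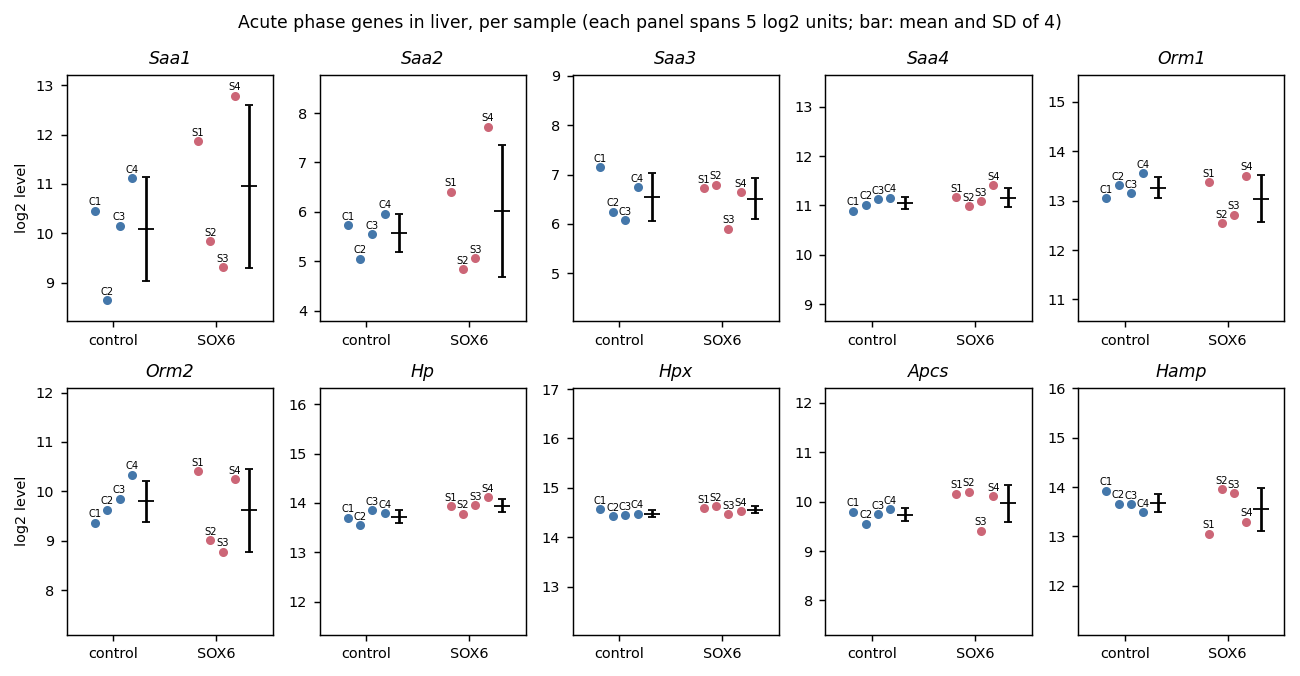
Log2 level of each acute phase gene in the 4 control and 4 SOX6 livers, one point per sample, with mean and SD beside the points; each panel spans 5 log2 units. Saa1, Saa2 and Orm2 spread widely, whereas Saa4, Hp and Hpx keep within a narrow band, and the groups overlap in every panel.

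The orosomucoids read in the opposite direction to Saa1 on average, and neither passed. Orm1 in control livers read 13.05, 13.31, 13.15 and 13.56 and in SOX6 livers 13.38, 12.55, 12.72 and 13.51. S2 and S3 were the lowest livers, while S1 and S4 lay among the controls. The difference was -0.23 (95% interval -0.68 to 0.21, limma adjusted p = 0.748). Orm2 in control livers read 9.36, 9.63, 9.85 and 10.34 and in SOX6 livers 10.41, 9.01, 8.78 and 10.25. Again S2 and S3 were lowest, and S1 was the highest of the 8. The difference was -0.18 (95% interval -0.96 to 0.60, limma adjusted p = 0.909), it read 0.10 without S3, and its spread ranked 75 of 8731. Orm1 and Orm2 are close relatives, so their probes may share transcripts, which was not tested.

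Haptoglobin came nearest to a difference. Control livers read 13.70, 13.55, 13.85 and 13.79 and SOX6 livers 13.93, 13.78, 13.95 and 14.11. S4 was highest and C2 lowest, and only S2 lay among the controls, below C3 and C4. The groups averaged 13.72 ± 0.13 and 13.94 ± 0.13 (SD, n = 4 each), a log2 difference of 0.22 or 1.16-fold (95% interval 0.04 to 0.41, limma adjusted p = 0.404). The other probes of Hp gave 0.21 and 0.25. The exact two-sided permutation p of the main probe was 0.0857, where 0.0286 is the smallest that 4 against 4 allows, and across the 3 probes it ran from 0.0571 to 0.143. Within the chips the difference was 0.19, 0.41, -0.06 and 0.30, each from a single SOX6 liver.

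By its main probe, hemopexin was the steadiest of the 10. Control livers read 14.57, 14.42, 14.44 and 14.48 and SOX6 livers 14.59, 14.63, 14.47 and 14.53, all within a 1.16-fold range. The difference was 0.08 (95% interval -0.05 to 0.21, limma adjusted p = 0.689), and its other probe gave 0.14. That other probe varied more, with livers from 13.22 to 13.78, a 1.47-fold range. The main probe's signal ranked 1 to 11 among the 45281 on liver arrays, the top of the array's range. Whether that range limits its differences was not tested.

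Apcs, the mouse pentraxin, had 3 SOX6 livers above every control and 1 below them. Control livers read 9.80, 9.55, 9.75 and 9.85 and SOX6 livers 10.16, 10.20, 9.41 and 10.11. S3 was the lowest of all 8. The difference was 0.23 (95% interval -0.12 to 0.59, limma adjusted p = 0.674), and it read 0.42 without S3 (limma adjusted p = 0.245).

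Hamp, the iron hormone, was lowest in the livers that were highest in Saa1. Control livers read 13.93, 13.66, 13.65 and 13.49 and SOX6 livers 13.06, 13.96, 13.88 and 13.30. S1 and S4 lay below every control, and S2 was the highest of the 8. The difference was -0.13 (95% interval -0.54 to 0.27, limma adjusted p = 0.862), and without S1 it read 0.03. The genome holds a second, similar hepcidin gene, and whether the probe reads it was not tested.

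**Figure D3:**
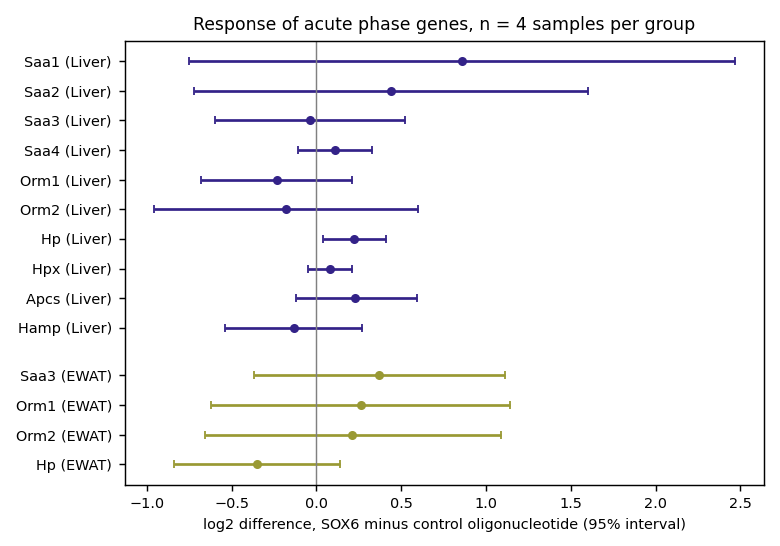
Log2 difference, SOX6 minus control gapmer, with its 95% interval from limma for the 10 acute phase genes in liver (purple) and the 4 detected in EWAT (olive), n = 4 per group. Every interval includes 0 except that of Hp in liver, 0.04 to 0.41, whose adjusted p was 0.404, and Saa1 has the widest interval.

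Across the 8 livers, Saa2 alone among the other 9 genes followed Saa1 past the threshold. In rising order of Saa1 the livers were C2, S3, S2, C3, C1, C4, S1 and S4. The Pearson r of Saa1 and Saa2 was 0.932 (n = 8 livers, exact permutation p = 0.000322, adjusted p = 0.0029 over 9 relations) and Spearman's rho was 0.929 (exact permutation p = 0.00223, adjusted p = 0.0201). Without C2 and S4, the livers farthest from the median, r was 0.935, and with each treatment centred on its own mean it was 0.93. Orm2 had r = 0.725 and rho = 0.738 (exact permutation adjusted p = 0.0804 and 0.156), with r = 0.91 without C2 and S4. Hamp ran the other way, with r = -0.727 and rho = -0.69 (exact permutation adjusted p = 0.0804 and 0.156) and r = -0.875 without C2 and S4. Hp had r = 0.718 and rho = 0.524 (exact permutation adjusted p = 0.0804 and 0.253), and r of 0.003 without those livers, so that its relation rested on them. For Saa4, Apcs, Orm1, Saa3 and Hpx r was 0.744, 0.695, 0.578, 0.47 and 0.408, with exact permutation adjusted p from 0.0804 to 0.312. All points of a relation come from the same arrays, and Saa1 and Saa2 may share transcripts on their probes.

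**Figure D4:**
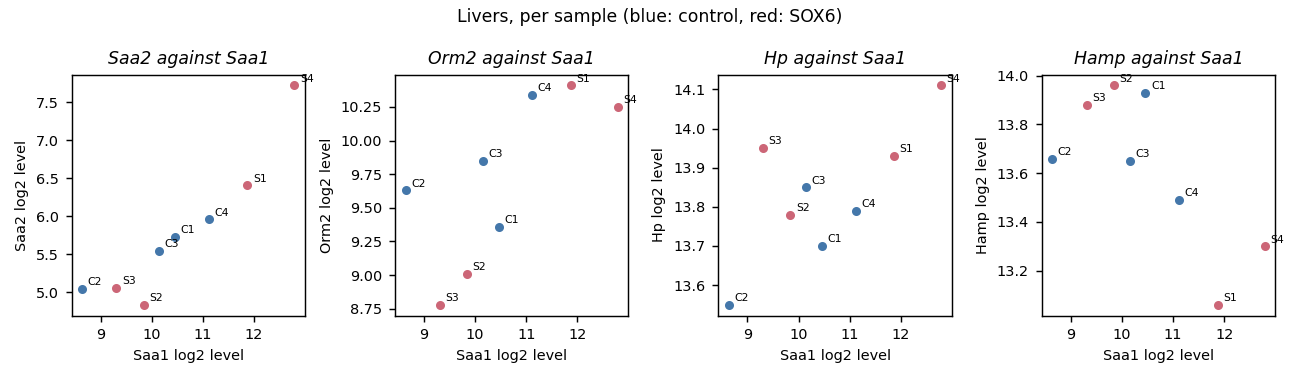
Log2 levels of Saa2, Orm2, Hp and Hamp against Saa1 in the 8 livers, blue for control and red for SOX6 gapmer. Saa2 climbs with Saa1 in both treatments (r = 0.932), and Hamp is lowest in S1 and S4, the livers with the most Saa1.

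By likeness of pattern alone, the non-member genes nearest to Saa1 over the 8 livers were Olfr159 (Pearson r = 0.973), Klhl22 (0.958), Uqcc2 (0.94), Rnf31 (0.921) and Aldh3b1 (0.921), of 8721 compared. Their ranges were smaller than that of Saa1. Olfr159 ran from 4.8 to 5.73, close to the lowest detected values of the liver arrays, 4.75 to 4.9. Klhl22 ran from 6.87 to 7.40 and Uqcc2, an assembly factor of respiratory complex III, from 10.35 to 10.65. Rnf31, a subunit of the linear ubiquitin ligase, ran from 6.10 to 6.47, and Aldh3b1, an aldehyde dehydrogenase, from 4.99 to 6.23. With so many genes and 8 livers, high values of r are found by selection, and they are given as a description.

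In EWAT 4 of the 10 genes were detected well enough to be tested, Saa3, Orm1, Orm2 and Hp, and 0 were called, as were 0% of the 10935 genes tested by limma. Unadjusted p was under 0.05 for 0 of the 4 and 4.99% of all genes, and groups overlapped in all 4, where they did not in 2.78% of all genes. The log2 difference was above 0 for 3 and below 0 for Hp, with a median of 0.2375, against -0.024 over all genes, and adjusted p ran from 0.842 to 0.951.

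Saa3, the fat and macrophage form, read 6.23, 7.21, 7.45 and 6.57 in control EWAT and 7.52, 6.93, 7.83 and 6.66 in SOX6 EWAT. S3 was highest and C1 lowest, and S2 and S4 lay inside the control range. The groups averaged 6.87 ± 0.56 and 7.24 ± 0.53 (SD, n = 4 each), a difference of 0.37 (95% interval -0.37 to 1.11, limma adjusted p = 0.877). Leaving out S2 and S4 gave 0.81, leaving out C3 and S3 gave 0.37, and leaving out all of these gave 0.85, which leaves S1 as the only SOX6 sample (limma adjusted p = 1, 0.7 and 1). Within the chips it was 0.84, 0.61, 1.05 and -0.78. In that order these set S1 against C4, S3 against C2, S1 and S2 against C1, and S4 against C3. Macrophage markers read in the same direction: all 8 tested had a positive difference, where 45.1% of all EWAT genes did, and 0 passed. The sign was not particular to them. All 5 neutrophil and all 4 lymphocyte markers tested were positive too, as were 4 of 7 mesothelial markers. The summed level of macrophage markers was 10.87 to 12.5 in control and 11.8 to 13.02 in SOX6 EWAT. Mesothelial markers summed to 10.32 to 12.18 and 11.44 to 12.13, and neutrophil markers to 8.38 to 9.12 and 8.77 to 9.63. These sums leaned on few genes. Krt8 was the highest mesothelial marker in C3 and S3, at 10.82 and 10.83, where Msln read 6.75 and 7.67. The neutrophil sum of 9.63 in S2 held Mmp9 at 8.54 and Ltf at 7.16. Retnlg, Ngp, Mmp8 and Cxcr2 had 0 of 10 EWAT arrays with detection. The part of these cell types in the Saa3 level was not tested. Nearest to Saa3 in pattern over the 8 EWAT samples, of 10931 genes compared, were Stard8 (Pearson r = 0.96), Ifi207 (0.944), Rcan3 (0.944), Efs (0.93) and Sri (0.929), again as a description.

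The orosomucoids in fat turned on control sample C3. Orm1 read 11.34, 11.21, 9.55 and 11.26 in control EWAT and 11.51, 11.28, 10.51 and 11.10 in SOX6 EWAT. C3 and S3, the samples with ciliated duct genes, were the lowest of their groups, and the other 6 lay close together. The difference was 0.26 (95% interval -0.62 to 1.14, limma adjusted p = 0.936), and it read -0.17 without C3. With S2 and S4 left out it was 0.17, with C3 and S3 left out 0.03, and with all of these left out 0.24. Orm2 read 7.88, 7.51, 6.05 and 7.58 in control EWAT and 7.76, 7.71, 6.82 and 7.59 in SOX6 EWAT, with C3 and S3 lowest again. The difference was 0.21 (95% interval -0.66 to 1.09, limma adjusted p = 0.951), and it turned to -0.19 without C3. It read 0.03 when C3 and S3, or S2 and S4, were left out, and 0.10 without all of these. The part of the duct tissue in these levels was not tested.

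Haptoglobin in fat read 13.78, 14.16, 14.25 and 14.41 in control EWAT and 13.95, 13.24, 14.27 and 13.76 in SOX6 EWAT. S2 was lowest, with S4 next, and C4 was highest. The groups averaged 14.15 ± 0.27 and 13.80 ± 0.43 (SD, n = 4 each), a difference of -0.35 (95% interval -0.84 to 0.14, limma adjusted p = 0.842), and its other probes gave -0.28 and -0.33. Leaving out the samples with epididymal genes, S2 and S4, gave -0.04, leaving out C3 and S3 gave -0.47, and leaving out all of these gave -0.17 (limma adjusted p = 1, 0.522 and 1). Of 12 adipocyte markers tested, 11 read below 0 and 1 above, where 45.1% of all EWAT genes read above 0. Of these markers 0 passed, and their median was -0.252. Without S2 and S4 that median was -0.165, and without all of these samples -0.042. The adipocyte markers' summed level was 16.64 to 16.9 in control and 16.62 to 16.79 in SOX6 EWAT. The part of the epididymal genes and of the adipocytes in the Hp level was not tested.

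**Figure D5:**
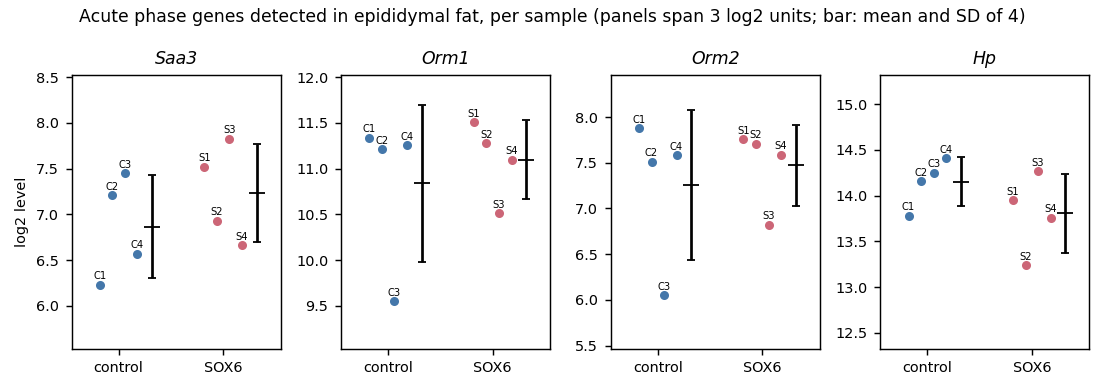
Log2 level of the 4 acute phase genes detected in EWAT, one point per sample, with mean and SD of 4 beside the points; each panel spans 3 log2 units. C3 and S3 are the lowest of their groups for Orm1 and Orm2, and S2 is the lowest for Hp.

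Hp read 0.22 in liver and -0.35 in EWAT when each tissue was normalized alone, and the difference between the responses was tested with all arrays normalized together. It was 0.54 (SE 0.23, 95% interval 0.05 to 1.03, limma adjusted p = 0.734) and 0.25 without EWAT samples S2 and S4. At an unadjusted p under 0.05 limma gave Hp alone of the 10, against 6.33% of all genes. After adjustment 0 of the 10 passed, against 0.0175% of 11413 genes. For the other 9, of which 6 were below detection in EWAT, adjusted p ran from 0.798 to 0.958.

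No signaling gene around these proteins passed in liver. Of 8 cytokines that induce acute phase genes, 6 had 0 of 14 liver arrays with detection and 1 was tested, Il1b, which encodes interleukin-1 beta. Il1b read 6.04 in S2 and 6.74 in S4 and 4.85 to 5.28 in the other 6 livers, a difference of 0.69 (95% interval -0.06 to 1.43, limma adjusted p = 0.544). None of 8 tested cytokine receptors passed, with 6 above and 2 below 0 and a median of 0.071. The tumor necrosis factor receptor Tnfrsf1a read -0.36 and the interleukin-1 co-receptor Il1rap 0.14 (limma adjusted p = 0.359 and 0.653). Of 11 transducers and transcription factors 0 passed, 7 were above 0 and the median was 0.043. Cebpb, which encodes a C/EBP factor of the acute phase response, read 0.54 (95% interval 0.02 to 1.07, limma adjusted p = 0.485), and the kinase gene Irak1 read 0.16. All 5 tested feedback genes were above 0, where 50.9% of all genes were, with a median of 0.231, and 0 passed. Bcl3 among them read 0.01. Socs3 read 0.23, with S4 at 9.53, the other SOX6 livers at 6.07 to 7.26 and controls at 6.15 to 7.84. Pias3, an inhibitor of STAT3, read 0.23 without overlap of the groups, and Zfp36, which destabilizes cytokine mRNAs, read 0.25 (limma adjusted p = 0.562 and 0.62). Groups did not overlap in 5.89% of all genes in liver.

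Other liver plasma proteins of the response did not pass either. Of 15 other positive acute phase genes tested, 0 passed, 2 read above and 13 below 0, with a median of -0.066. The fibrinogen gene Fga read -0.16 and ceruloplasmin Cp -0.23 (limma adjusted p = 0.494 and 0.575). Of 10 negative acute phase genes 0 passed, 5 read above and 5 below 0, with a median of 0.017. Serpina6, corticosteroid-binding globulin, read 0.35 and the retinol carrier Rbp4 0.18 (limma adjusted p = 0.485 and 0.59). Of 17 regulators of hepcidin and iron genes 0 passed, with a median of 0.013. The transferrin receptor Tfrc read 0.30 and ferritin Fth1 0.06 (limma adjusted p = 0.608 and 0.705). Of 9 receptors and enzymes that act on these proteins or their ligands 0 passed, with 8 above 0 and a median of 0.081. Cd163, the haptoglobin-hemoglobin receptor, read 0.52 and the heme oxygenase Hmox1 0.22 (limma adjusted p = 0.588 and 0.768).

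In EWAT none of these lists had a member that passed, and 0 of the 8 cytokines was detected in enough samples to be tested. Of 13 other positive acute phase genes, 5 read above and 8 below 0, with a median of -0.134. Lrg1, a leucine-rich glycoprotein, read 12.84, 12.82, 12.73 and 12.87 in control and 12.48, 11.63, 12.51 and 12.24 in SOX6 EWAT. Every SOX6 sample lay below every control, a difference of -0.60 (95% interval -1 to -0.20, limma adjusted p = 0.841). Groups did not overlap in 2.78% of all genes in EWAT. They did not overlap either in the receptor gene Lifr, at 5.1 to 5.33 in control and 5.35 to 5.51 in SOX6 EWAT. The complement gene C4b read -0.46 (limma adjusted p = 0.847). The 3 negative acute phase genes tested had a median of -0.404, with the antithrombin gene Serpinc1 at -0.40 and Rbp4 at -0.53 (limma adjusted p = 0.841 each). Medians were 0.038 over 7 receptors, with Lifr at 0.22 and Tnfrsf1b at 0.32, and 0.011 over 11 transducers, with Jak2 at 0.29 and Stat3 at -0.27. They were -0.015 over 6 feedback genes, with the NF-kB inhibitor gene Nfkbia at -0.19 and Zfp36 at 0.18 (limma adjusted p = 0.866 for each). Over 17 hepcidin and iron genes the median was -0.051. Slc40a1, which encodes ferroportin, read 8.56, 7.88, 8.44 and 7.33 in control and 9.14, 9.25, 9.32 and 8.37 in SOX6 EWAT. SOX6 sample S4 lay below control samples C1 and C3, and the difference was 0.97 (95% interval 0.30 to 1.64, limma adjusted p = 0.841). Bmp6, which encodes an inducer of hepcidin, read -0.35. Over 11 clearance genes the median was 0.024, with Cd163 at 0.72 and the Fc receptor Fcgr3 at 0.50 (limma adjusted p = 0.841 and 0.853), beside the macrophage markers given above. All of these list values are from the 8 samples. They were fitted again with S2 and S4 left out, then C3 and S3, then all of these. In that order Lrg1 read -0.32, -0.73 and -0.36, C4b 0, -0.64 and -0.09, and Rbp4 -0.41, -0.59 and -0.15. In the same order Slc40a1 read 1.18, 1 and 1.22, Cd163 0.94, 0.44 and 0.71, and Zfp36 -0.03, 0.28 and -0.07. The median of the positive acute phase genes was 0.057, -0.27 and -0.026 in these fits, of 13, 12 and 11 genes tested, and none of the lists had a member that passed in any of them.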

How the data were processed

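Illumina mouse bead arrays, 24 arrays on 4 chips, measured liver and EWAT. GenomeStudio was run, per the submitters' processing notes. The deposited intensity values are background-subtracted signals not normalized between arrays, with 25.7% to 37% of an array's probes below 0, and each has a deposited detection p-value. Values the authors had processed further are in log2 units and had equal sorted values across arrays within 0.001.

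Of 45281 probes, 34885 are paired with 1 gene, 18 with several and 10378 with none by the platform's annotation, and 34807 matched RefSeq (GRCm38.p6) by Entrez ID. Signals of a tissue were background corrected from detection p-values, quantile normalized and log2 transformed with an offset of 16 (neqc, limma 3.58.1, R 4.3.3, statmod 1.5.0). Repeat arrays were averaged. A probe was detected in a sample at a p-value under 0.05 on every array of it, and was tested when detected in at least 3 samples of a tissue. A gene took its detected probe with the highest mean. limma's lmFit and eBayes with trend were fitted over all genes of a tissue, two-sided, with Benjamini-Hochberg adjustment and a threshold of 0.05. The interaction and tissue contrasts used all arrays normalized together. Intervals are at 95%. The number of samples limits precision, and limma's p-values weigh a group difference against the spread between samples. No label states that equal numbers pair control and SOX6 samples, and the deviations of same-numbered samples correlated at 0.085, -0.037, 0.085 and 0.326 in liver and at 0.287, -0.046, 0.657 and 0.251 in EWAT, not positive in every pair, so the number was a block only in an alternative.

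The members, 8 gene lists and 11 marker lists, 205 entries of which 189 are on the array, were chosen with earlier results of these data known. Named genes were every member probe, passing list genes or else the 2 of smallest p per list, and the 5 genes nearest to Saa1 in liver and Saa3 in EWAT. Alternatives were other normalizations, the authors' values, other filters, the mean of probes, chip and replicate blocks, single arrays, other variance models, array weights, and leaving out samples.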

Additional observations from a re-analysis of the deposited data

Results flagged for a closer look

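Of 40 groups of 4 samples examined over the members' detected probes, 3 held a sample set far from the others. The gap to its nearest neighbor took up nearly the whole range of the group. Chance gives about 1 in 20 for independent, normally distributed values, so 3 of 40 is near that share. Some of the groups are probes of the same gene in the same samples. Control EWAT sample C3 read 9.55 for Orm1 against 11.21 to 11.34 in the other controls, a gap of 0.927 of the range. SOX6 liver S3 read 9.41 for Apcs against 10.11 to 10.20 in the other SOX6 livers, a gap of 0.886 of the range. The same liver read 5.90 for Saa3 against 6.64 to 6.79, a gap of 0.831 of the range.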

How the results depend on the processing

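Under the alternatives tried, 0 members passed in liver or EWAT. For the interaction only Saa3, Orm1, Orm2 and Hp were followed under the alternatives, and 0 of them passed. Of 724 member values under alternatives, 706 kept their sign and their side of the threshold, 14 changed sign, 2 lost and 2 gained a call. In liver, Saa3 read 0.01 with chip as a term and 0.01 with array weights, and -0.20 to 0.16 with a sample left out. Leaving out a sample gave Orm2 -0.44 to 0.10, Hamp -0.27 to 0.03, Saa2 -0.13 to 0.83 and Saa1 0.25 to 1.41. In EWAT it gave Orm1 -0.17 to 0.46 and Orm2 -0.19 to 0.43, and the Orm2 interaction ran from -0.60 to 0.04. In the tissue comparison Saa3 read -0.14 with median centring, and 8 to 9 members passed with a sample left out. Over all genes, limma called 21 in liver, 110 with unaveraged arrays and chip as a term, 99 without the chip term, 43 with the replicate number as a block, 13 without trend, 36 with array weights and 12 to 22 with a sample left out, 12 of them without C2 or without S3. The interaction called 2 genes, 5 when probes had to be detected in all samples of a group, 13 with unaveraged arrays with or without chip, 5 without trend, 8 with array weights, 0 to 3 with a sample left out, and 0 with median centring, with 1 array per sample, with the replicate block and without EWAT samples S2 and S4. Those counts of 0 had 483, 801, 715 and 574 genes at an unadjusted p under 0.05. The block changed no member's call. The causes were not tested. Dim probes, Saa2 among them, sit near background, where the offset compresses differences, and Hpx sits at the top of the range.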

Other observations

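The genes below were singled out after their values were seen, as those of the related lists that varied most within groups. Socs3, the feedback inhibitor that STAT3 induces, ranked 15 of 8731 genes by spread in liver. It read 7.84, 6.15, 7.00 and 7.14 in control livers and 6.20, 7.26, 6.07 and 9.53 in SOX6 livers, a difference of 0.23 (95% interval -1.21 to 1.68, limma adjusted p = 0.946). SOX6 liver S4 was thus the highest of the 8 for Socs3, Saa1, Saa2 and Il1b, whereas S1, the second highest for Saa1, was low for Socs3 and Il1b. The metallothionein gene Mt1 ranked 37 and read 12.08 in C1, 11.44 in S2, 11.30 in S4 and 9.70 to 10.60 in the other 5 livers. Id1, a target of the BMP signal that raises hepcidin, ranked 41 and read 7.19 and 6.64 in C1 and C2, 5.40 and 5.54 in C3 and C4, and 5.59, 7.32, 7.12 and 5.94 in S1 to S4.

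In EWAT the lipocalin gene Lcn2, an acute phase gene that ducts of the male tract and other epithelia also express, ranked 11 of 10935 genes by spread. It read 12.08 in C3 and 12.08 in S3, 8.88 in S2 and 8.71 in S4, and 5.84 to 6.77 in the other 4 samples. Its difference was 1.42 (95% interval -1.91 to 4.75, limma adjusted p = 0.902) and 0.54 without C3, S2, S3 and S4, and the 4 samples highest in Lcn2 are those that carried genes of ciliated ducts or epididymis. Hnf4a, an epithelial and hepatocyte transcription factor, read 8.49 in C3 and 8.46 in S3 and 5.03 to 5.22 in the other 6. The part of those tissues in Lcn2 and Hnf4a was not tested.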
